A study of Homo sapiens with 6 samples.

Results

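The sarcomere and muscle structural genes described here are 42 genes that encode the contractile filaments of striated muscle, the proteins that anchor and measure out those filaments, and desmin, muscle creatine kinase and myoglobin. They were chosen by name, and every probe whose gene name in the array files is one of the 42 was taken, which gave 70 of the 41000 probes of the array and 42 of its 30484 gene names. Gene expression was measured in RH36 cells, an embryonal rhabdomyosarcoma (ERMS) line that lacks the PAX3/FOXO1 translocation, on Agilent 1-colour arrays labelled with Cy3. In all, 3 biological replicates were transfected with pre-miR-27a, a synthetic precursor of miR-27a, and the same number with a negative control precursor (pre-control), by transient transfection in a single cell line. According to the labels 10 nM of precursor was used, and a harvest at 48 hours is given for pre-miR-27a. The paper gives another concentration and time for expression in these cells, and which one applies to the arrays was not settled. All values below are quantile-normalized log2 intensities, all differences are pre-miR-27a minus pre-control on the log2 scale, and a gene with several probes is represented by its probe with the highest mean signal unless another is named.

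In the sarcomere, thick filaments of myosin slide past thin filaments of actin, and the troponin and tropomyosin complex on the thin filament makes that sliding depend on calcium. Titin and the myosin binding proteins hold the thick filaments in register between the Z-disc and the M-band, and alpha-actinin, telethonin, LDB3 and the myozenins join filaments at the Z-disc. Most of these proteins come in embryonic, slow, fast and cardiac isoforms encoded by different genes, which are switched on in turn as myoblasts fuse and muscle fibres mature. Rhabdomyosarcoma cells express part of this programme without completing differentiation.

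The agent transfected was the precursor of the mature miRNA below, shown because it is what differed between the groups. It is hsa-miR-27a-3p as given by RefSeq on GRCh38.p14, chr19:13836447-13836467 on the minus strand, with the seed (bases 2 to 8) in capitals. Target sites in the members were not searched for.
hsa-miR-27a-3p: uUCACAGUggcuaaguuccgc

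Probes missing a found spot on more than 1 array were dropped, and 67 of the 70 member probes passed, covering 40 genes. MYH4, a fast adult myosin heavy chain, MYL2, the slow and ventricular regulatory light chain, and 1 of the 3 probes of MYH6 were not kept and were well above background on no array. Of the 40 genes, 39 had a brightest probe well above background on all 6 arrays. The exception was MYH1, another fast adult myosin heavy chain, which was well above background on none. No member spot was saturated. A single M-band gene is counted throughout but is not reported by name. Probes of close relatives, such as the myosin heavy chains, can hybridise each other's transcripts, and this was not tested.

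The labelled cell type was checked against its markers. Desmin, the muscle intermediate filament, measured 15.60 ± 0.43 in pre-control (SD, n = 3) and 15.59 ± 0.46 in pre-miR-27a. MYOD1 and MYOG, which encode the myogenic determination factor and myogenin, were well above background on all 6 arrays, whereas the probe of MYF5 was not kept. Of the 6 smooth muscle markers, 5 were well above background on all 6 arrays, and the exception was MYH11, smooth muscle myosin, which was well above background on none. Of the 6 cardiac markers, 3 were (NPPA, NPPB and HAND2), while the cardiac transcription factors TBX5 and TBX20 lay between 2.01 and 4.32 and between 2.05 and 3.13, and the probe of MYL7 was not kept.

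The comparison of the groups asks whether a raised level of miR-27a changes these transcripts. Without pairing of the arrays, no member probe was called by limma at an adjusted p of 0.05 (0 of 67), where 7.83% of all 36469 probes were called. In the same fit 6 of the 67 member probes had an unadjusted p under 0.05, where 9037 of the 36469 probes did. By brightest probe, 29 members were lower and 11 higher with the miRNA, and their median difference was -0.19, against -0.02 over all probes. Of the 11, MYH3, MYL1, TNNT2 and MYOZ2 lay just below 0 with 75th percentile scaling. The median was 0.19 without pre-control replicate 3 and 0.066 without pre-miR-27a replicate 1. Differences ran from -0.83 for TNNI1 to 0.40 for MYH8. Over all 67 member probes, 26 were higher and 41 lower, with a median of -0.06. In bulk RNA, fewer cells of a type and less RNA per cell cannot be told apart. Each group was hybridised on a slide of its own, so that slide and transfection cannot be separated, or told apart, in any difference given here.

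The spread that these differences were set against was large and had a common shape. In both groups, the array numbered 3 carried the highest value of 36 of the 39 members measured on all 6 arrays, where 16% of all probes did the same. For 20 of the 39, replicate 3 exceeded the mean of replicates 1 and 2 by over 1 log2 unit in both groups, a size reached by 0.892% of all probes. The median excess of replicate 3 over the members was 0.99 in pre-control and 1.17 in pre-miR-27a, and over all probes it was -0.02 in each. The members' deviations from their group means correlated between same-numbered arrays with r of 0.77, 0.89 and 0.98 for replicates 1, 2 and 3, over 39 members that share the arrays, given as a description. Over 31717 probes measured on all 6 arrays the same correlations were 0.40, 0.46 and 0.41. Whether culture density, passage or another property of the replicates moved with the muscle genes was not tested.

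**Figure D1:**
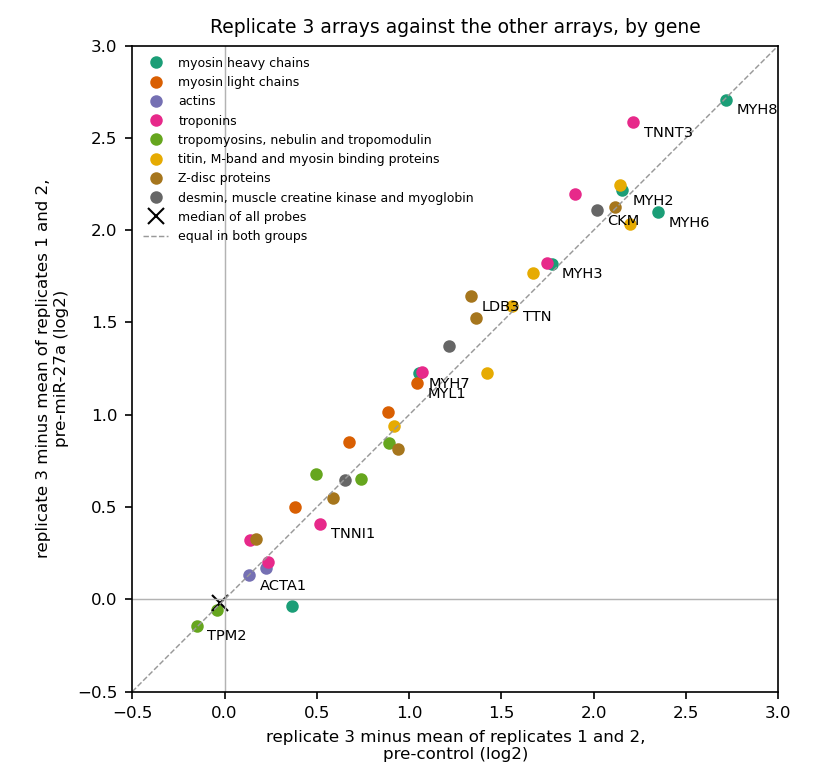
Each point is 1 of the 39 member genes measured on all 6 arrays. The axes give the log2 value of replicate 3 minus the mean of replicates 1 and 2 in pre-control (x) and in pre-miR-27a (y), colours give the role, the cross is the median of all probes and the dashed line marks equal values. Most members lie up and to the right along the line, with MYH8 at 2.72 and 2.71, while TPM2 lies at -0.15 and -0.14.

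A test of the 3 replicate numbers with the group in the model (an F test by limma), chosen after the pattern had been seen, called 0 of 67 member probes and 0% of all probes at an adjusted p of 0.05, the smallest adjusted p being 0.0721. At an unadjusted p under 0.05 it picked out 49 of the 67 member probes, against 26.9% of all probes. The outcome depended on the background correction and on the filter on dim spots. The test called 0 of 67 member probes with 75th percentile scaling, 0 of 70 with no filter on dim spots and 0 of 67 with outlier spots removed. After normexp background correction 48 of 67 were called, against 15.1% of all probes, and with only well-measured spots kept, 46 of 65 were called, against 21.0%. With the authors' deposited values, which hold fewer probes, 34 of 68 were called, against 3.32%, and with a filter on a positive and significant flag 33 of 68, against 3.18%.

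Myosin heavy chains, the motors of the thick filament, showed the widest swing between replicates. MYH3, the embryonic heavy chain, measured 15.14, 14.36 and 16.52 on pre-control replicates 1, 2 and 3, and 15.28, 14.36 and 16.64 on pre-miR-27a replicates 1, 2 and 3. MYH8, the perinatal heavy chain, measured 11.26, 11.59 and 14.14 in pre-control and 11.57, 12.08 and 14.53 in pre-miR-27a. For both genes the groups overlapped fully, since replicate 3 of either group stood above replicates 1 and 2 of the other. Within same-numbered pairs MYH8 was higher in pre-miR-27a each time, by 0.31, 0.50 and 0.39, whereas MYH3 differed by 0.14, 0.00 and 0.12 (mean 0.09, or -0.071 with 75th percentile scaling). MYH2, the heavy chain of fast oxidative fibres, measured 9.11, 9.54 and 11.48 in pre-control and 9.27, 9.36 and 11.53 in pre-miR-27a, a mean difference of 0.01 with a 95% interval of -2.15 to 2.17. MYH7, the slow and ventricular heavy chain, was lower in each pair, at 12.20, 10.78 and 12.54 in pre-control against 11.67, 10.35 and 12.24. MYH6, the atrial heavy chain, differed by -0.31 by its brightest probe and by 0.15 by its second probe, so its direction is not settled. By position, the array files place the probes of MYH8 at chr17:10236632-10236875, MYH1 at chr17:10336397-10336456, MYH2 at chr17:10365298-10365357 and MYH3 at chr17:10472691-10473667 (hg18), 1 cluster of heavy chain genes, and MYH6 and MYH7 lie side by side on chromosome 14.

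Light chains sit on the neck of each myosin head. MYL1, the fast alkali light chain, measured 14.96, 15.16 and 16.10 in pre-control and 15.06, 15.15 and 16.28 in pre-miR-27a. MYL4, the embryonic and atrial light chain, measured 15.05, 15.89 and 16.14 in pre-control and 14.98, 15.74 and 16.21 in pre-miR-27a. Replicate 3 was the highest array of its group for both, and neither separated the groups. The differences over the 4 light chains kept ran from -0.25 for MYL3, the slow light chain, to 0.09 for MYL1 (-0.074 with 75th percentile scaling), with 1 higher and 3 lower.

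By their brightest probes, the sarcomeric actins varied far less between replicates than most myosins. ACTA1, the skeletal actin of mature fibres, measured 9.02, 9.15 and 9.22 in pre-control and 8.68, 8.83 and 8.89 in pre-miR-27a. Every pre-miR-27a array lay below every pre-control array, and the pairs differed by -0.34, -0.32 and -0.33. The difference of -0.33 (SE 0.10, n = 3 per group) had an adjusted p of 0.102 by limma, or 0.0413 once same-numbered arrays were paired. ACTC1, the cardiac actin that is also the main actin of embryonic skeletal muscle, measured 17.08, 16.97 and 17.25 in pre-control and 16.87, 16.72 and 16.97 in pre-miR-27a. Its groups met, with pre-control replicate 2 and pre-miR-27a replicate 3 both at 16.97, and the difference was -0.25 with a 95% interval of -0.52 to 0.03. A second ACTC1 probe did vary with the replicate, at 15.66, 15.57 and 16.54 in pre-control and 15.69, 15.46 and 16.43 in pre-miR-27a, and differed by -0.06.

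**Figure D2:**
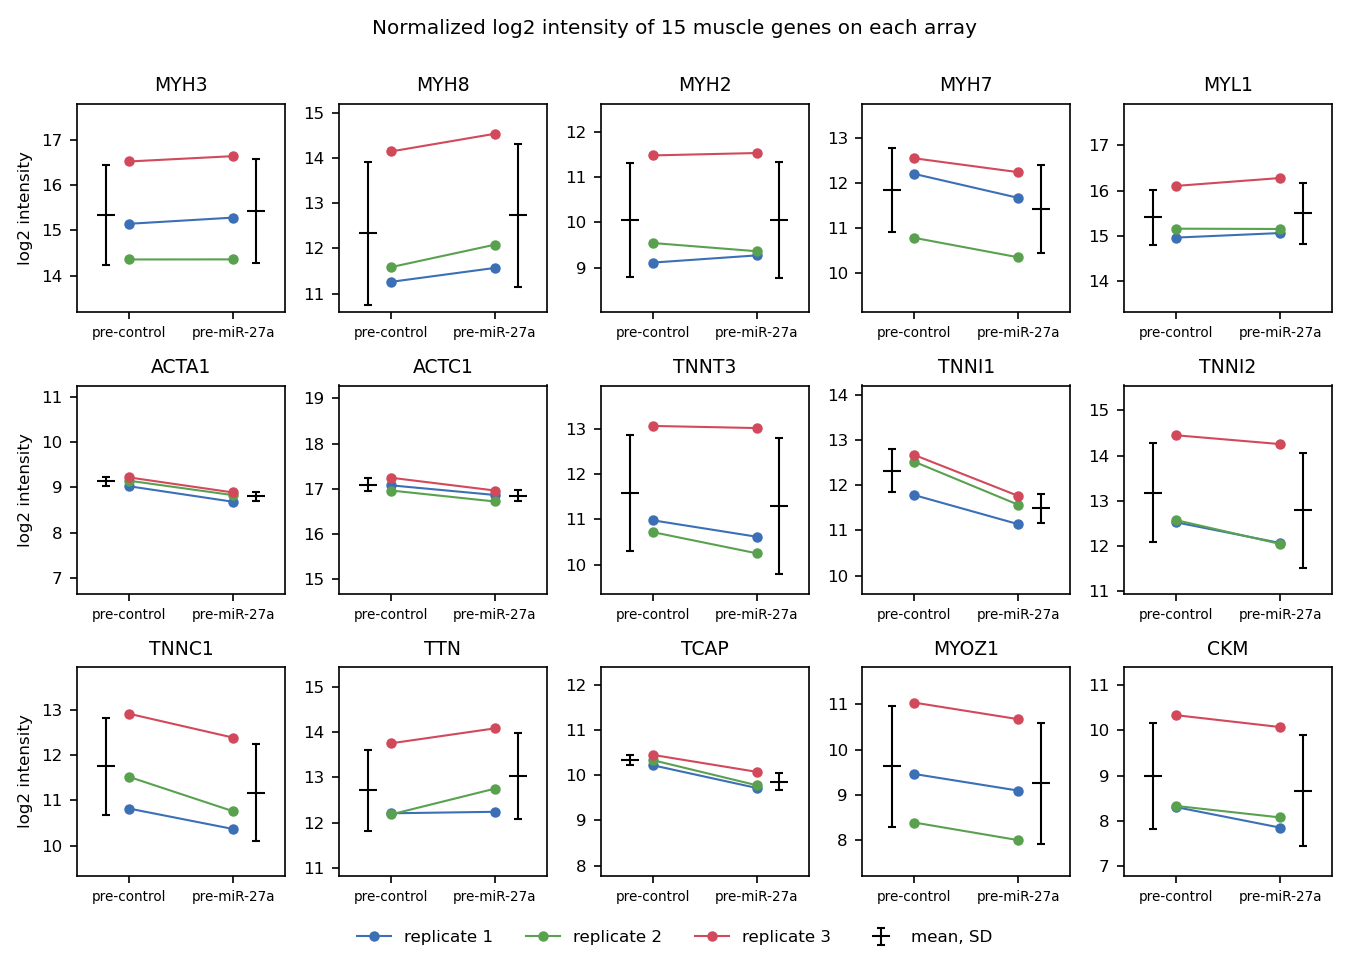
Normalized log2 intensity (y axis, the same span of 4.6 log2 units in every panel) of 15 member genes on each array, with same-numbered arrays of the groups joined by a line and the mean and SD of each group in black. In MYH8, MYH2, TNNT3, MYOZ1 and CKM the line of replicate 3 lies well above the others, while in ACTA1, ACTC1 and TCAP the lines lie close together and slope down.

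Troponins form the calcium switch of the thin filament, with a calcium-binding (C), an inhibitory (I) and a tropomyosin-binding (T) subunit. TNNI1, the slow skeletal inhibitory subunit, had the largest difference of any member, at 11.78, 12.52 and 12.66 in pre-control and 11.14, 11.56 and 11.76 in pre-miR-27a. Its groups did not overlap, and the difference of -0.83 (SE 0.28, n = 3 per group) had an adjusted p of 0.146 by limma, or 0.0336 with the replicate block described below. TNNI2, the fast inhibitory subunit, measured 12.52, 12.57 and 14.45 in pre-control and 12.07, 12.05 and 14.25 in pre-miR-27a. TNNI3, the cardiac inhibitory subunit, measured 5.72, 6.16 and 6.37 in pre-control and 5.41 and 5.46 in pre-miR-27a replicates 1 and 3. Its spot on pre-miR-27a replicate 2 was flagged as well above background but also as not found. Its difference of -0.64 (adjusted p of 0.156 by limma) therefore rests on 5 arrays. All 3 inhibitory subunits were lower on average, but that of TNNI2 was within the swing of replicate 3.

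Among the calcium-binding subunits, TNNC1, the slow and cardiac form, measured 10.82, 11.52 and 12.91 in pre-control and 10.37, 10.76 and 12.39 in pre-miR-27a. TNNC2, the fast form, measured 16.08, 16.30 and 17.26 in pre-control and 15.76, 16.16 and 17.19 in pre-miR-27a. Both were lower in every pair, with differences of -0.45, -0.76 and -0.53 for TNNC1 and of -0.32, -0.14 and -0.07 for TNNC2, and both had overlapping groups. Among the tropomyosin-binding subunits, TNNT1 (slow) measured 16.65, 16.78 and 16.86 against 16.34, 16.75 and 16.87, and TNNT2, the cardiac form that is also made in embryonic skeletal muscle, measured 14.30, 14.56 and 14.66 against 14.37, 14.55 and 14.66. These values were close to equal in both groups, apart from pair 1 of TNNT1, which differed by -0.31. The 95% interval of the difference was -0.50 to 0.28 for TNNT1 and -0.31 to 0.35 for TNNT2. With 75th percentile scaling the TNNT1 difference was -0.30. TNNT3, the fast form, swung instead with the replicate, at 10.98, 10.72 and 13.06 in pre-control and 10.61, 10.25 and 13.01 in pre-miR-27a. On hg18 the TNNI1 probe (chr1:199650976-199653559) and the brightest TNNT2 probe (chr1:199599068-199599127) come from neighbouring genes, as do those of TNNI2 (chr11:1819013-1819320) and TNNT3 (chr11:1912636-1912695). Of the 8 troponin genes, 1 was higher (TNNT2, which was at -0.10 with 75th percentile scaling) and 7 lower, with a median difference of -0.34.

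Tropomyosin winds along the actin filament, nebulin runs the length of the thin filament, and tropomodulin caps its pointed end. TPM1, TPM2, TPM3, NEB and TMOD1 differed by -0.25 to 0.12, and TPM2 and TPM3 were among the steadiest members, with SDs of at most 0.10 in either group. Tropomyosin genes are also expressed outside muscle, and probes of 1 gene can fall in different splice forms. The 11 probes of TPM3 disagreed, with 8 higher and 3 lower. A probe of these (chr1:152412247-152415219) measured 9.68, 10.02 and 10.31 in pre-control and 10.39, 10.46 and 10.52 in pre-miR-27a, and another (chr1:152397898-152397957) measured 9.34, 9.37 and 9.74 against 8.73, 9.02 and 9.26. The first was higher and the second lower on every pre-miR-27a array than on any pre-control array, and these probes were named after their values were seen. The brightest TPM3 probe lies on chromosome 2 in the files, unlike the other 10 on chromosome 1, and is the only 1 of the 70 member probes placed off its gene's chromosome. TPM1 also held probes in both directions, with 1 higher and 5 lower of 6.

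Titin, the giant spring of the sarcomere, had the second largest positive difference, 0.31 (95% interval -1.27 to 1.89), by its brightest probe. TTN measured 12.21, 12.18 and 13.75 in pre-control and 12.24, 12.75 and 14.09 in pre-miR-27a, with replicate 3 again on top, while its second probe differed by -0.04. MYBPC1, the slow myosin binding protein C, measured 10.68, 10.39 and 11.96 against 10.96, 10.48 and 11.95. MYBPC2, the fast form, measured 10.60, 11.66 and 13.27 against 10.52, 11.23 and 13.12. The 6 genes of titin, the M-band and the myosin binding proteins split 2 higher and 4 lower, and all 6 were highest on replicate 3 in both groups.

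At the Z-disc, TCAP (telethonin), which ties the ends of titin together, measured 10.22, 10.33 and 10.45 in pre-control and 9.72, 9.78 and 10.07 in pre-miR-27a. Its groups did not overlap, and the difference of -0.48 (SE 0.13, n = 3 per group) had an adjusted p of 0.0821 by limma, or 0.0370 with the replicate block. MYOZ1, the fast fibre myozenin, measured 9.46, 8.39 and 11.04 in pre-control and 9.10, 8.001 and 10.67 in pre-miR-27a. The 3 pairs of MYOZ1 agreed closely, at -0.37, -0.39 and -0.37, although the arrays within a group differed by more than 2 log2 units. MYOZ2, the slow fibre form, measured 13.15, 13.31 and 14.17 against 13.27, 13.39 and 14.14. LDB3, a Z-disc scaffold, differed by -0.51, and the alpha-actinins ACTN2 and ACTN3 by 0.10 and 0.09.

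Among the remaining proteins, CKM, the muscle creatine kinase that buffers ATP, measured 8.30, 8.33 and 10.34 in pre-control and 7.85, 8.08 and 10.07 in pre-miR-27a. MB, the oxygen-storing myoglobin, differed by -0.23 and desmin by -0.01. The 3 genes were all highest on replicate 3 in both groups. Groups of arrays did not overlap for 3 members by brightest probe (TNNI1, TCAP and ACTA1, each lower), where 17.5% of all probes did not overlap in that direction, and for no member in the higher direction, where 15.2% of all probes did not.

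Since same-numbered arrays deviated together, the fit was repeated with the replicate number as a block, which compares the arrays within pairs. The block narrowed the standard error 16.7 times for MYH8, 18.2 times for MYOZ1 and 1.91 times for ACTA1. By limma with the block, 1 of 67 member probes was called higher, against 7.24% of all probes, and 7 were called lower, against 7.62%. MYH8 was the 1 called higher, at 0.40 (1.32-fold) with a 95% interval of 0.21 to 0.59 and an adjusted p of 0.0442. Those called lower were TNNI1 (-0.83, 1.78-fold lower, interval -1.09 to -0.57, adjusted p of 0.0336), TCAP, MYOZ1, TNNC1, ACTA1 and MYH7, with adjusted p of 0.0370 to 0.0450 by limma, and the second of the TPM3 probes above (-0.48). They include genes classed as slow isoforms (TNNI1, TNNC1, MYH7) and as adult fast isoforms (MYOZ1, ACTA1). The count called lower was near the share of all probes, and the count called higher was below it. Without the arrays numbered 3, the same fit called 0 member probes and 0 probes in all. With so few arrays left, that outcome cannot tell whether the calls above depended on replicate 3.

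**Figure D3:**
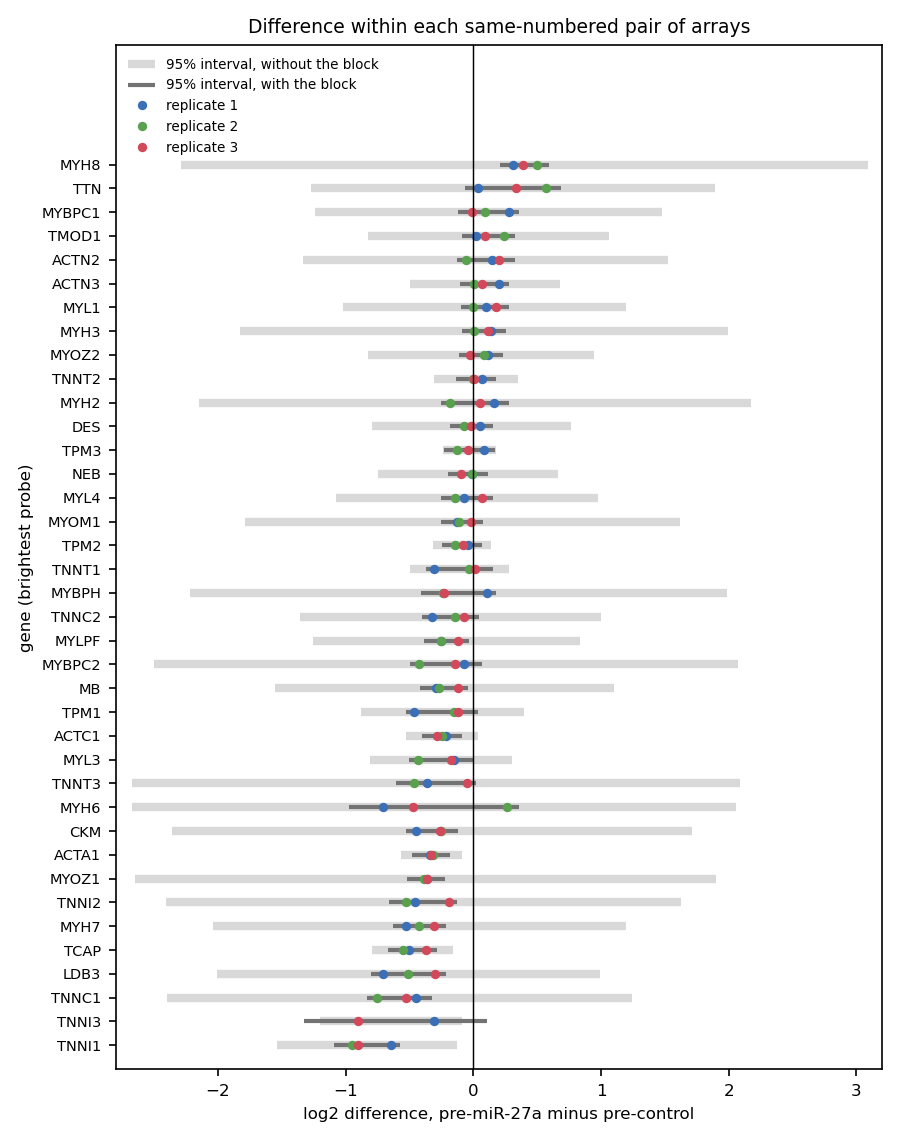
Log2 difference, pre-miR-27a minus pre-control (x axis), of 38 member genes well above background on all 6 arrays (y axis), with 1 point per same-numbered pair of arrays and the 95% intervals of the limma fits without (light) and with (dark) the replicate block. The points of MYH8 lie between 0.31 and 0.50 and those of TNNI1 between -0.95 and -0.64, inside much wider light intervals for MYH8, MYOZ1 and TNNC1. The TNNI3 difference uses 5 arrays, and 1 further gene is not plotted.

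Of the 39 members measured on all 6 arrays, 21 were lower in all 3 pairs, where 33.6% of all probes were, and 5 were higher in all 3, where 29.4% were. Of the probes called with the block, those of ACTA1, TCAP and TNNI1 and the second of the TPM3 probes above had no overlap between groups either. Those of MYH8, MYH7, TNNC1 and MYOZ1 separated only once each array was set against its same-numbered partner.

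Whether embryonic or slow isoforms moved against their adult fast partners was tested on the log2 ratio of 2 probes within an array. A ratio of 2 probes is not a ratio of amounts, so only its change between groups was read. Of the 12 pairs listed, 11 had both probes well above background, and for none did the groups of arrays separate. The smallest p that 3 arrays against 3 allow in the exact two-sided permutation test is 0.1, the smallest found was 0.2 for TNNC1 to TNNC2, and the adjusted values ran from 0.77 to 0.80 over the 11 pairs. The change was positive for 6 pairs and negative for 5, and that of ACTC1 to ACTA1, 0.09, turned to -0.14 with 75th percentile scaling. The ratio of the embryonic MYH3 to the perinatal MYH8 changed by -0.31 (pairs -0.17, -0.49 and -0.27), and that of the slow TNNI1 to the fast TNNI2 by -0.44 (-0.19, -0.42 and -0.71). The slow MYOZ2 to the fast MYOZ1 changed the other way, by 0.43 (0.48, 0.48 and 0.34), as did the slow MYBPC1 to the fast MYBPC2 by 0.33 (0.35, 0.51 and 0.14). Over the 3 pairs of arrays, and without adjustment for the 11 ratios, the 95% interval of the change lay above 0 for MYOZ2 to MYOZ1 and below 0 for MYL4 to MYL1, and it held 0 for the other ratios. The sign of the mean change thus differed from one slow and fast pair to the next. As no ratio separated the groups, a difference in direction between these pairs was not shown.

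**Figure D4:**
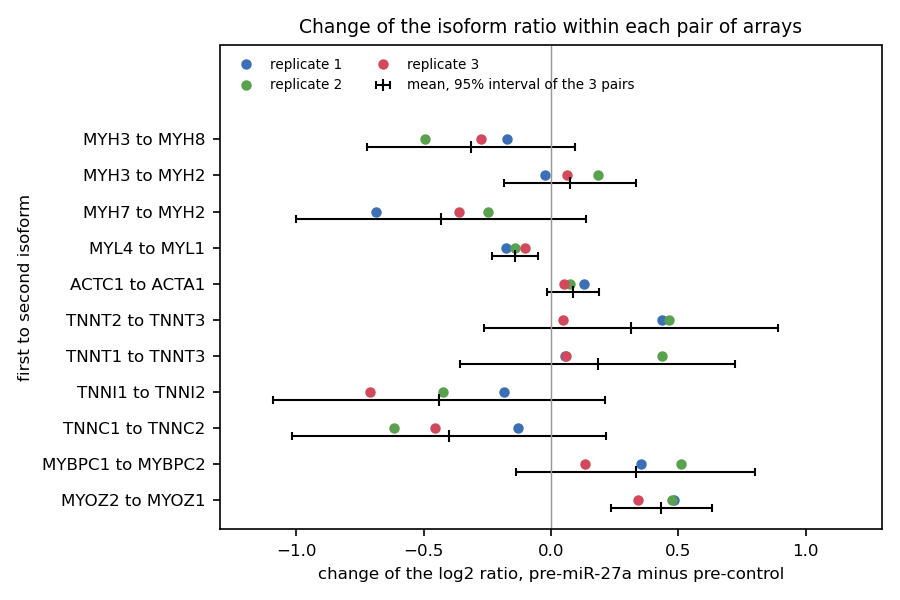
Change of the log2 ratio of 2 isoforms, pre-miR-27a minus pre-control (x axis), for 11 pairs of isoforms (y axis), with a point for each same-numbered pair of arrays and, in black, the mean with the 95% interval over the 3 pairs. MYOZ2 to MYOZ1 lies at 0.34 to 0.48 and TNNI1 to TNNI2 at -0.71 to -0.19, and changes on both sides of 0 are seen among the slow to fast pairs.

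The replicates shifted several of these ratios by more than the groups differed. TNNT2 to TNNT3 was lower on replicate 3 than on the mean of replicates 1 and 2 by a difference of -1.98 in pre-control and -2.38 in pre-miR-27a, and TNNI1 to TNNI2 by -1.38 and -1.79. By class, the median excess of replicate 3 was 0.67 in pre-control and 0.85 in pre-miR-27a for the 5 developmental or embryonic isoforms, 0.94 and 0.81 for the slow skeletal and ventricular isoforms, and 1.07 and 1.23 for the adult fast isoforms. The median group difference was 0.02, -0.25 and -0.21 for the same classes, with 5, 7 and 11 genes kept. No test between the classes was made.

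Other genes of the sarcomere and of muscle more widely (such as PYGM, ENO3, CRYAB and LMOD1), 47 listed and 43 kept, were examined in the same way. None was called by limma without the block, and their median difference was -0.04. In that fit 5 of the 43 had an unadjusted p under 0.05, where 9037 of all 36469 probes did. With the block 2 of the 43 were called higher (7.24% of all probes were), MYOM3 of the M-band at 0.41 and SYNPO2L of the Z-disc at 0.45. Those called lower were 6 of the 43 (7.62% of all probes were), among them MYL5 (-0.56), LMOD1 (-0.68), PDLIM7 (-0.40), XIRP1 (-0.56) and CRYAB (-0.58). Replicate 3 was over 1 log2 unit higher in both groups for 11 of the 42 measured on all 6 arrays.

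Of the 10 myogenic regulators kept, 1 was called by limma without the block, where 7.83% of all probes were called. This was MEF2D, a MADS-box factor of muscle genes, which measured 11.79, 12.02 and 11.81 in pre-control and 11.17, 11.11 and 11.11 in pre-miR-27a (-0.75, adjusted p of 0.0190). Its call was lost when pre-control replicate 2 or any 1 pre-miR-27a array was left out, since 0 probes of the whole array were then called. With the block MYOG and MYOD1 were called lower too, which made 3 of 10, where 7.62% of all probes were called lower. MYOG measured 9.72, 10.40 and 10.69 in pre-control and 8.87, 9.42 and 9.67 in pre-miR-27a, and MYOD1 measured 12.19, 12.42 and 12.53 against 11.82, 11.97 and 12.01. The groups of both genes did not overlap. Of the 10 regulators, 5 were lower without overlap, where 17.5% of all probes were. In the other direction 1 was higher without overlap, PAX3 at 0.43, where 15.2% of all probes were. The excess of replicate 3 was over 1 log2 unit in both groups for 2 of the 10, MYF6 and MEF2C, which encode the late myogenic factor MRF4 and a further MADS-box factor. MEF2C measured 10.93, 11.33 and 12.99 in pre-control and 10.92, 11.31 and 12.86 in pre-miR-27a, and MYF6 measured 9.57, 7.76 and 10.99 against 9.47, 7.40 and 11.02. Their part in the shared pattern of the members was not tested. With the block, the smooth muscle markers ACTA2 (-0.61) and TAGLN (-0.63) and the cardiac marker NPPB (-0.89) were also called lower.

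The promoters of 28 of the 42 genes were found in the RefSeq table for GRCh38.p14, as windows from 250 bases before to 50 after the start. They were searched for letters that muscle transcription factors are known to bind, and for TATAAA, the TATA box of promoters in general. The E-box CAGCTG, a site of MYOD1 and myogenin, was present on either strand in 35.7% of member promoters and 17.7% of all 27305 promoters. The MCAT element CATTCC was present in 28.6% against 14% on either strand, and TATAAA on the gene's strand in 32.1% against 7.71%. A MEF2 site was present in 17.9% against 3.09%, and a CArG box, the site of serum response factor, in 14.3% against 1.29%, both on either strand, and motifs could overlap each other. Among the 13 promoters of members with the large excess on replicate 3, 38.5% held the E-box and 23.1% a MEF2 site, against 23.1% and 15.4% of the 13 other members measured on all 6 arrays. TATAAA went the other way, at 23.1% against 38.5%, and the MCAT element (30.8%) and the CArG box (15.4%) were as frequent in both sets. These shares are descriptions of letters in a window, with small numbers of promoters.

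In all, 4 promoters are shown, with every such motif in capitals, 5′ to 3′ on the gene's strand, since these genes span the patterns seen. MYH8 (chr17:10421901-10422200, minus strand) had the widest swing and the highest difference, MYOZ1 (chr10:73641425-73641724, minus) had pairs close to each other despite a wide swing, CKM (chr19:45322826-45323125, minus) is a gene of mature fibres that swung with the replicate, and ACTA1 (chr1:229434045-229434344, minus) was steady and lower. The capitals are a MEF2 site in MYH8 and in MYOZ1, an E-box in CKM, and a CArG box, 2 MCAT elements and a TATA box in ACTA1.
MYH8: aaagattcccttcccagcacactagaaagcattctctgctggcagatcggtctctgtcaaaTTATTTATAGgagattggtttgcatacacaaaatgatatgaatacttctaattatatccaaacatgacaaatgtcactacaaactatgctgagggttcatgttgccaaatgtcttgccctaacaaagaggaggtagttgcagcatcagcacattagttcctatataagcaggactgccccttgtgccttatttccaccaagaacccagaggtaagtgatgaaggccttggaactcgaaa
MYOZ1: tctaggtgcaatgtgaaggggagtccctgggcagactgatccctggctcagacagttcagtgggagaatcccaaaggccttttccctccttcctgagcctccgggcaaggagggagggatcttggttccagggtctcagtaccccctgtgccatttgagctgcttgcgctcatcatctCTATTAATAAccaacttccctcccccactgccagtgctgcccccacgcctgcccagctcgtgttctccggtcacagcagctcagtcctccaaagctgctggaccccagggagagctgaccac
CKM: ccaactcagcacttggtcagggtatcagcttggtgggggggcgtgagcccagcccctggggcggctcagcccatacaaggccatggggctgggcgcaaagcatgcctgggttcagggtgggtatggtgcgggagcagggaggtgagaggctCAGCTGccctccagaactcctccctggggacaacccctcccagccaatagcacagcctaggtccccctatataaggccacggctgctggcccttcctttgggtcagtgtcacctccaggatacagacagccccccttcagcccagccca
ACTA1: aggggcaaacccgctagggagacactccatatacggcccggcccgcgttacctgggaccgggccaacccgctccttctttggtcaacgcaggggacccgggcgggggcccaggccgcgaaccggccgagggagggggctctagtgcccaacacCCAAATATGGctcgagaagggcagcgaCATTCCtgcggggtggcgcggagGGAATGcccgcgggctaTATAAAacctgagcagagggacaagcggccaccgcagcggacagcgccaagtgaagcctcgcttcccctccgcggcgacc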

How the data were processed

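Total RNA of RH36 cells was hybridised to 1-colour arrays, 3 per group. The authors deposited, per spot, the processed intensity of Agilent Feature Extraction 10.5.1.1, which subtracts a fitted background within the array, with mean and background intensity and quality flags. No normalization between arrays had been applied to them. A second deposited file, from the authors, holds log2 values whose column medians were 9.13 to 9.22 and which differed from the values computed here by a median of 0.0026 to 0.0066, in the same direction and on the same scale. It lists 68 of the member probes. There were 0 further columns of samples.

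After removal of control spots, processed intensities were log2 transformed and quantile normalized, spots not found by the scanner software were treated as missing, and replicate spots were averaged. Probes missing on more than 1 array were removed, which left 36469 of 41000. Files were read with the data.table package (version 1.17.8) in R 4.3.3, and the groups were compared over these probes by limma 3.58.1 with p-values adjusted after Benjamini-Hochberg (threshold 0.05). The fits were tested on simulated data with noise independent between arrays. A shift shared by same-numbered arrays was not simulated, so the fits were not tested in that setting. Isoform ratios were compared by exact permutation over arrays. Motifs and sequences were read from RefSeq tables of GRCh38.p14, where MYLPF is listed as MYL11. Positions of probes were taken from the files (hg18), and exon or UTR was not assigned.

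The replicate numbers come from the labels, and they are also the positions on the slides. Arrays with the same number deviated together, with r of 0.40, 0.46 and 0.41 over 31717 probes, and the number was therefore treated as a pairing. Between different numbers r was -0.27 to -0.12. As deviations were taken from group means, positive values for same numbers force negative ones elsewhere, which are not separate evidence. A shared culture and a shared slide position cannot be told apart, so the pairing is an assumption of the block. The fit without the block is the main one, because the study's methods name a class comparison without pairs, although its results speak of a paired one. On pre-control arrays 69.9% to 73.9% of spots were well above background and on pre-miR-27a arrays 74.1% to 78.0%, with median local backgrounds of 74.5 to 76 and 52.5 to 53, no spot saturated, and precision limited by how few arrays there were.

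The members and the gene lists were chosen with earlier results of these data known. Values on every array are given for members called in the fit without the block (none), members of an isoform pair run, and the 3 largest differences in each direction among brightest probes well above background on all 6 arrays. TPM3, TCAP, CKM, LDB3, MYH6, MYL3, MB, ACTN2, ACTN3 and DES, and values of other-list genes not called, were added after values were seen. The alternatives were 75th percentile scaling, normexp (offset 50), no filter or other filters on dim spots, the authors' log2 values, limma with trend and robust estimation, the block, the mean of a gene's probes, and each array left out. Removing outlier spots, leaving out both arrays numbered 3 and the replicate F test were added after seeing the data.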

Additional observations from a re-analysis of the deposited data

How the results depend on the processing

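Without pairing, no member probe was called under 75th percentile scaling, normexp, no filter, the filter on spots well above background, removal of outlier spots, trend and robust estimation or the loss of any array. With a filter on a positive and significant flag 1 of 68 was called, where 3309 of all 33189 probes were. With the authors' values it was also 1 of 68, where 3343 of all 33169 probes were called. Both times it was the probe of MYH1 (-0.96 and -0.94), which was well above background on none of the 6 arrays. Over the whole array, 1276 probes were called without pre-control replicate 1, 81 without pre-control replicate 3 and 0 when any other array was left out. The pairing of the arrays, fitted as a replicate block, gave 8 of 67 member probes, where 5421 of all 36469 probes were called. The median difference of the members was -0.24 with 75th percentile scaling, which moved the median of all probes from -0.02 to -0.09, and -0.17 with normexp. It was -0.23 without both arrays numbered 3, with or without the block. With 1 array left out it ran from -0.51 (without pre-miR-27a replicate 3) to 0.19 (without pre-control replicate 3), and it was also above 0 without pre-miR-27a replicate 1, at 0.066.

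Of 414 values of named genes over the alternatives, 363 kept their direction and their side of the threshold, 7 were called with the block alone and 44 changed sign. Much of that agreement was fixed beforehand, since no named gene was called in the main fit. Filters on dim spots, trend estimation and the block also leave most differences unchanged. With 1 array left out, 3 to 8 of the 23 named genes changed sign, and 4 did with 75th percentile scaling. With 75th percentile scaling MYH3 was at -0.071, TNNT2 at -0.10, MYOZ2 at -0.023 and MYL1 at -0.074. MYH2 was at -0.011 in the block without replicate 3, and the mean of the TPM3 probes was 0.035. Leaving out 1 array gave differences of -0.52 to 0.68 for MYH3, -0.50 to 1.304 for MYH8, -0.73 to 0.73 for MYH2, -0.95 to 0.11 for MYH7, -0.30 to 0.44 for MYL1 and -0.37 to 0.28 for MYL4. It gave -0.081 to 0.10 for TNNT2, -0.22 to 0.046 for TNNT1, -1.15 to 0.45 for TNNT3, -1.12 to 0.24 for TNNI2, -1.19 to 0.0028 for TNNC1 and -0.59 to 0.18 for TNNC2. It gave -0.29 to 0.59 for MYBPC1, -0.96 to 0.50 for MYBPC2, -0.22 to 0.83 for TTN, -0.21 to 0.37 for MYOZ2, -1.08 to 0.33 for MYOZ1 and -0.073 to 0.026 for TPM3. ACTA1 (-0.38 to -0.27), ACTC1 (-0.31 to -0.17), TCAP (-0.59 to -0.41), TNNI1 (-1.10 to -0.66) and TNNI3 (-0.82 to -0.50) kept their sign. Among isoform pairs, 1 separated the groups with 75th percentile scaling and 0 to 2 with 1 array left out, 1 without both arrays numbered 3, and ACTC1 to ACTA1 was at -0.14 with that scaling. The replicate F test called 48 member probes with normexp, 46 with the filter on spots well above background, 33 with the positive and significant flag and 34 with the authors' values. It called 0 member probes with 75th percentile scaling, with no filter and with outlier spots removed. The causes of these differences were not tested. MYH1, well above background on none of the 6 arrays, is limited by signal. The second MYH6 probe was well above background on only 2 of the pre-control arrays.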
